A study of Homo sapiens with 32 samples.

Results

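The genes of the human mitochondrial genome were examined across LNCaP prostate cancer cells that carried, or lacked, a tamoxifen-inducible construct directed to androgen response elements. Members were all genes in the count table whose symbol begins with MT-, which gave 37 of 57773 genes. They were split by the strand on which GENCODE annotates them on GRCh37: 28 genes on the plus strand, called here the heavy-strand set, and 9 on the minus strand, called the light-strand set, which comprises MT-ND6 and 8 transfer RNA (tRNA) genes.

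LNCaP is an androgen-dependent line from a prostate cancer lymph node metastasis. The study compared the parental control with stable lines expressing a MACC, a fusion of a DNA binding domain that recognizes those elements with ERT2, an estrogen receptor domain that enters the nucleus on tamoxifen binding. The neutral MACC (3X) carries only the FLAG tag, the repressive MACC adds KRAB, which recruits silencing factors, and the activating MACC adds the viral activation domain VP64. Cells of all 4 lines received 2.5 µM tamoxifen or vehicle (EtOH) for 48 h, with 4 replicates per group, 8 groups and 32 libraries. All cells were grown in RPMI medium with serum. The MACC lines were made with lentivirus and kept in blasticidin, which the labels give for those lines alone, so in a comparison of a MACC line with the parental line the construct, the transduction and the antibiotic cannot be told apart. Whether each line was a clone or a pool was not given in the sources used here. The labels call the replicates biological without naming separate cultures, so p-values measure the spread between these samples.

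The mitochondrial genome is a small circular DNA present in many copies per cell. It is read from both strands as long precursor RNAs, which are cut into messenger, ribosomal and transfer RNAs, largely at the tRNAs that lie between the other genes. Its protein genes encode core subunits of the respiratory chain and ATP synthase: the ND genes belong to complex I, MT-CYB to complex III, MT-CO1, MT-CO2 and MT-CO3 to complex IV, and MT-ATP6 and MT-ATP8 to ATP synthase. Heavy-strand messenger RNAs carry short poly(A) tails, whereas the messenger RNA of MT-ND6 and the mature tRNAs are described as lacking them.

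The genes are packed end to end, and 3 stretches show where counts of neighbors are hardest to separate. MT-ND5 on the plus strand and MT-ND6 on the minus strand meet tail to tail without a gap. The junction lies at chrM:14119-14178 and is printed from the plus strand. The capitals mark the stop codon of MT-ND5 followed by the complement of the stop codon of MT-ND6.
ND5/ND6 junction: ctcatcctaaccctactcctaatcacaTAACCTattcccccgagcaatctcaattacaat
MT-ATP8 and MT-ATP6 share 46 bases at chrM:8527-8572 on the plus strand, where capitals mark the start codon of MT-ATP6 and the stop codon of MT-ATP8.
ATP8/ATP6 overlap: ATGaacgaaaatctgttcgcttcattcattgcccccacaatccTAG
MT-ND4L and MT-ND4 share 7 bases on the plus strand, shown in capitals within chrM:10745-10781.
ND4L/ND4 overlap: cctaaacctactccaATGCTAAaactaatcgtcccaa

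The strand contrast among the tRNA genes can be read from 3 neighbors. MT-TW, the tryptophan tRNA gene, lies on the plus strand at chrM:5512-5579, and the alanine and asparagine tRNA genes MT-TA (chrM:5587-5655) and MT-TN (chrM:5657-5729) follow on the minus strand. Each is printed 5′ to 3′ along its own strand, with the anticodon in capitals.
MT-TW: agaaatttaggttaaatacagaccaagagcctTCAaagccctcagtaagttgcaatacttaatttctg
MT-TA: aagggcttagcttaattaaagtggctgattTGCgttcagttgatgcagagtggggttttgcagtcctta
MT-TN: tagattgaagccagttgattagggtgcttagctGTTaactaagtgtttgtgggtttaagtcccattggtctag
MT-TW had 0 counts in all 32 libraries, whereas MT-TA had a mean of 14.4 counts per library (range 3 to 24) and MT-TN a mean of 6.41 (range 0 to 12).

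Counts were far higher on the light-strand set than its 9 short genes would fill by length. MT-ND6 alone held 58.8% of all counts on the 37 genes, between 45.5% and 70.9% in each library, and ranked 16 by mean count in the whole table. Its mean was 4468 counts per library, or 8511 per kilobase of gene. The 12 heavy-strand protein genes ranged from 64.9 per kilobase for MT-ATP8 to 627 for MT-ND5, with a median of 172, so that every one of them lay below MT-ND6 on the per-length scale. The ribosomal RNA genes were lower still, at 9.24 per kilobase for MT-RNR1 and 25.1 for MT-RNR2, the RNAs of the small and large subunits of the mitochondrial ribosome.

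All 8 light-strand tRNA genes had counts, 812 over the 32 libraries and 6 to 45 per library. Of the 14 heavy-strand tRNA genes, 13 had 0 counts in every library, and MT-TL2, a leucine tRNA gene, had 1 count in all. A count of 0 allows a share of up to 0.000258 to 0.000659% of a library (3 counts, counting error only). The library kit marks strand, but the strand setting used for counting was not given in the sources used here, so reads from a gene and RNA from its opposite strand cannot be told apart and a count on a named gene is not shown to be that gene's own transcript. Whether the strand setting has a part in these levels was not tested. Below, a gene said to rise, fall or be lower is one whose assigned counts did so.

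**Figure D1:**
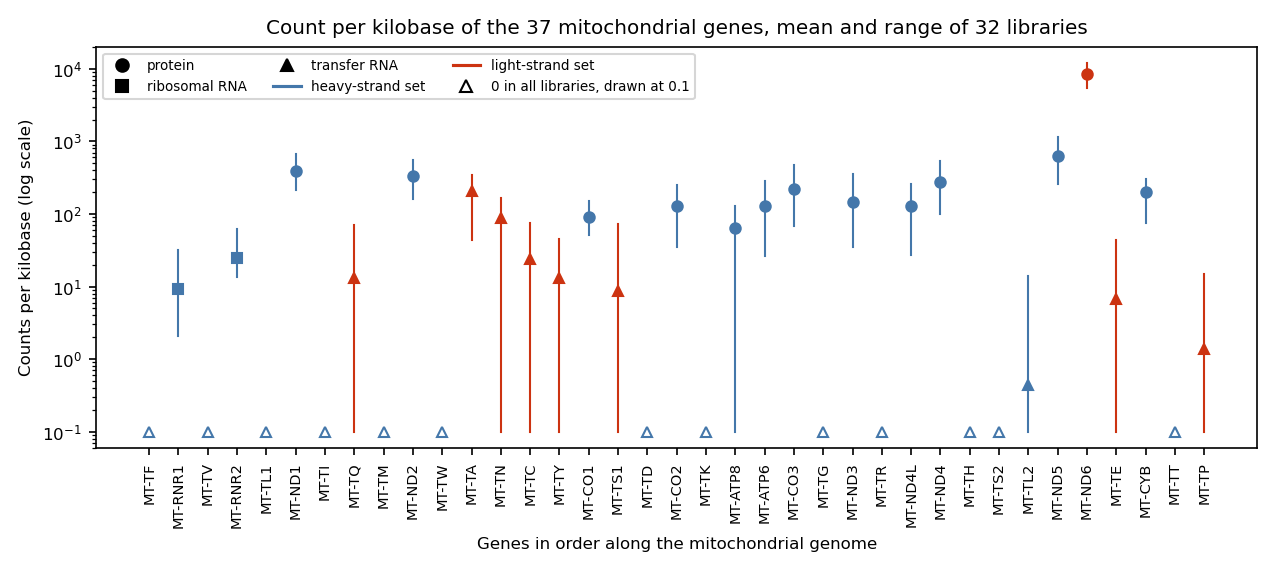
Mean estimated count per kilobase of gene (log scale) for the 37 mitochondrial genes in genome order, with vertical lines from the lowest to the highest of 32 libraries and open triangles for genes at 0 in all of them. MT-ND6 stands at 8511 per kilobase, the heavy-strand protein genes between 64.9 and 627, and 13 of the 14 heavy-strand tRNA genes at 0; lines that reach the bottom include libraries at 0.

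Libraries held 454982 to 1164808 counts (median 669922), of which 0.716 to 1.53% fell on the 37 genes. Neutral tamoxifen replicate 1 stood apart: it was the deepest library, and its chi-square per gene against its group had a median of 24.1, against a median of 2.47 over all 48 replicate pairs. The luminal prostate markers KLK3, KLK2, KRT8 and KRT18 had counts in all 32 libraries. Counts were few for KLK3 (3 to 59), KLK2 (2 to 18) and KRT18 (9 to 42), beside KRT8 (311 to 5848). Of 3 markers of other cell types, PTPRC (blood) was at 0 throughout, COL1A1 (fibroblasts) reached 2 counts, and KRT5 (basal cells) was at 0 outside activating tamoxifen libraries, where it reached 54 counts. Whether these KRT5 counts come from separate cells, and any part of such cells in the group's mitochondrial values, was not tested. In bulk RNA, fewer mitochondria per cell and less RNA per mitochondrion cannot be told apart.

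The share of library counts on the 37 genes differed most between treatments in the repressive line. It was 1.43% ± 0.0846 (SD, n = 4) under vehicle and 0.901% ± 0.125 under tamoxifen, and the 4 libraries of each treatment did not overlap. In the neutral line the share was 0.936% ± 0.0886 under vehicle and 1.07% ± 0.194 under tamoxifen, with overlap, and without replicate 1 of the tamoxifen group the difference changed from 0.134 to 0.215 percentage points, and without replicate 4 to 0.0607. Shares in the parental line, 1.13% ± 0.264 and 1.16% ± 0.0708, and in the activating line, 1.32% ± 0.151 and 1.27% ± 0.0451, differed by less than their larger SD.

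Behind the activating line's similar totals, its parts went in opposite directions as shares of library counts. MT-ND6 went from 0.642% ± 0.0498 to 0.839% ± 0.0556 of library counts, while the other 36 genes together went from 0.681% ± 0.112 to 0.428% ± 0.0564. In that line MT-ND6 made up 48.8% ± 3.35 of mitochondrial counts under vehicle and 66.2% ± 4.06 under tamoxifen. The same share went from 52.1% ± 2.40 to 64.2% ± 2.57 in the repressive line and from 51.1% ± 1.05 to 59.9% ± 5.99 in the neutral line. The parental line was at 65.6% ± 4.63 under vehicle and 69.1% ± 1.80 under tamoxifen. Parental vehicle libraries thus already stood above the vehicle libraries of all 3 MACC lines. These shares sum over members and were not tested. They are relative to library totals, and in the activating line the size of the drop depends on that scaling. Totals shift the median of all tested genes by -0.43 on the log2 scale relative to TMM. With TMM the log2 fold changes of the heavy-strand protein genes ran from -0.57 for MT-ND1 to 0.0079. MT-ND5 and MT-CO1 were at -0.09 and -0.04.

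**Figure D2:**
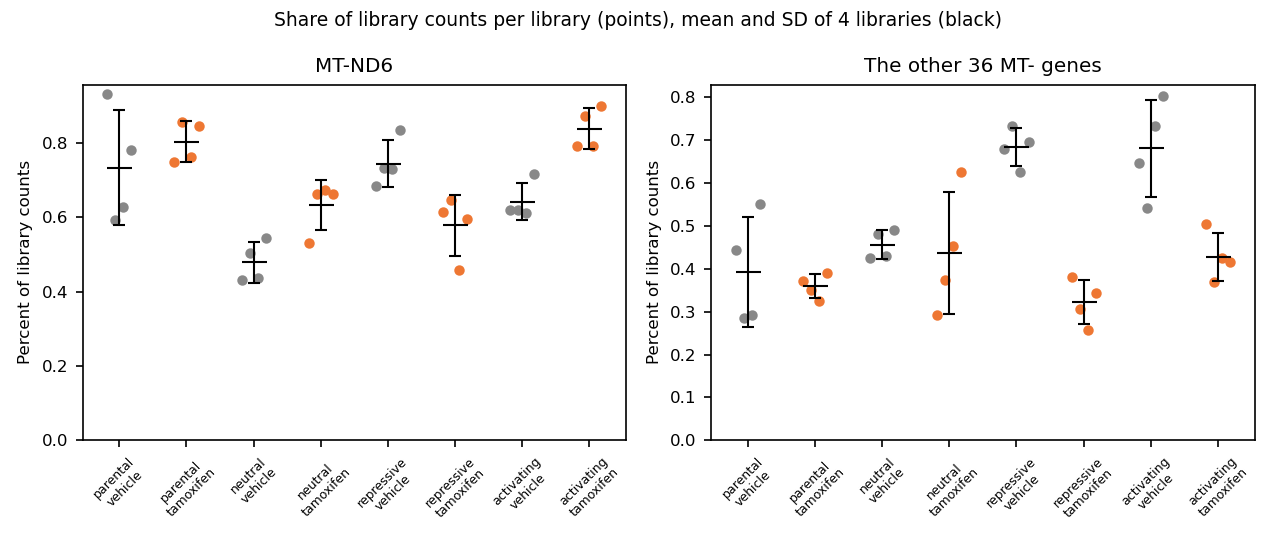
Percent of each library's counts on MT-ND6 (left) and on the other 36 mitochondrial genes (right), with grey points for vehicle and orange points for tamoxifen libraries, and black bars for the mean and SD of 4 libraries. In the activating line MT-ND6 went from 0.642 to 0.839% while the other genes went from 0.681 to 0.428%, a drop whose size depends on scaling by library totals, and in the repressive line both shares were lower under tamoxifen.

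For tests, genes with enough counts over the 8 groups were kept by edgeR's filterByExpr. This left 3985 genes, among them 17 of the 37 members: 13 protein genes, MT-RNR1, MT-RNR2, MT-TA and MT-TN. The other 20, all tRNA genes, averaged at most 1.59 counts (MT-TC, the cysteine tRNA gene). Levels are given below as normalized counts, which are CPM values (counts scaled to the same library total, after TMM scaling over all libraries), and a gene was called at an adjusted p under 0.05 from edgeR's quasi-likelihood test over all 3985 genes. Fold changes are on the log2 scale with their standard error (SE), positive where tamoxifen or the first named line was higher.

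Protein genes of the mitochondrial genome were lower under tamoxifen in the repressive line. All 12 members called there were lower, and they included every complex IV and ATP synthase gene and all 7 complex I genes, whereas MT-CYB of complex III, the ribosomal RNAs and the tRNAs did not pass. In this line 17.8% of all tested genes were called, 9.99% lower and 7.80% higher. The median log2 fold change of the 17 tested members was -1.10, beside 0.0049 over all tested genes.

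MT-ND5 encodes a proton-pumping subunit of complex I. Its normalized counts were 2430, 2534, 2116 and 2616 under vehicle and 1136, 940, 1009 and 1131 under tamoxifen. All vehicle libraries lay at least at 2116 and no tamoxifen library above 1136, a log2 fold change of -1.25 (SE 0.0661, adjusted p = 2.07e-14 from edgeR).

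MT-ND4, a neighboring membrane subunit of complex I, had normalized counts of 927, 881, 800 and 953 under vehicle and 378, 237, 301 and 298 under tamoxifen. The groups did not overlap, and the log2 fold change was -1.59 (SE 0.093, adjusted p = 1.18e-11 from edgeR). MT-ND3, a small complex I subunit, was at 120, 149, 128 and 129 under vehicle and at 36.0, 22.6, 29.0 and 48.2 under tamoxifen. Its fold change was the largest among members in this line, at -1.99 (SE 0.183, adjusted p = 2.41e-09 from edgeR).

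Complex IV genes MT-CO2 and MT-CO3 and the ATP synthase gene MT-ATP6 also separated completely between treatments. MT-CO2 ranged from 199 to 218 under vehicle and from 67.2 to 97.8 under tamoxifen, a log2 fold change of -1.47 (SE 0.131, adjusted p = 1.55e-09 from edgeR). MT-CO3 ranged from 321 to 442 under vehicle and from 133 to 170 under tamoxifen, with a fold change of -1.36 (SE 0.113, adjusted p = 4.1e-10 from edgeR). MT-ATP6 ranged from 178 to 223 under vehicle and from 58.0 to 87.5 under tamoxifen, with a fold change of -1.57 (SE 0.141, adjusted p = 1.58e-09 from edgeR). The overlapping partners followed their neighbors, MT-ND4L at -1.44 beside MT-ND4 and MT-ATP8 at -1.10 beside MT-ATP6. Reads in the shared bases cannot be assigned to either gene of such a pair. The MT-ATP8 call was not made by DESeq2 (adjusted p = 0.0628).

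The remaining calls were smaller. Log2 fold changes were -0.42 for MT-CO1, -0.39 for MT-ND2, -0.34 for MT-ND1 and -0.25 for MT-ND6, and edgeR gave adjusted p-values of 0.0266, 0.0184, 0.0034 and 0.0412 in the same order. MT-ND6 had normalized counts of 6582, 6487, 6565 and 7971 under vehicle and 6252, 6356, 5303 and 6011 under tamoxifen. The lowest vehicle library lay only just above the highest tamoxifen library. Leaving out replicate 3 or 4 of either treatment ended the call for MT-ND6 (adjusted p from edgeR 0.0655 to 0.101), and leaving out replicate 4 of either treatment, or replicate 3 of vehicle, ended that for MT-ND2 (0.0529 to 0.0559). For MT-CO1, replicate 3 or 4 of either treatment or replicate 2 of tamoxifen did so (0.0577 to 0.104), and DESeq2 did not make it (0.0686). MT-CYB was at -0.28 (adjusted p = 0.0700 from edgeR) and MT-TN at -1.33 (adjusted p = 0.104 from edgeR).

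Ordered along the genome, the changes in the repressive line fell into 2 sizes, a grouping made after the values were seen and given without a test. The 8 protein genes of the heavy-strand set from MT-CO2 through MT-ND5 follow each other without another protein gene between them, and their log2 fold changes ran from -1.99 to -1.10 with a median of -1.45. The heavy-strand protein genes on either side, MT-ND1, MT-ND2 and MT-CO1 before and MT-CYB after, ran from -0.42 to -0.28 with a median of -0.36. MT-ND6, which lies between MT-ND5 and MT-CYB on the other strand, was at -0.25.

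The count ratio of the 8 genes to the other 4 was 2.33 ± 0.0981 (SD, n = 4) under vehicle and 1.15 ± 0.0716 under tamoxifen in the repressive line. It was also lower under tamoxifen in the neutral line, at 1.35 ± 0.287 against 2.13 ± 0.117. The 4 libraries of each treatment did not overlap in either line. In the repressive line the 8 genes were grouped by these same values, so the separation there is no added support. In the activating line the ratio was 2.12 ± 0.199 under vehicle and 2.23 ± 0.401 under tamoxifen. Parental libraries had 1.51 ± 0.168 and 1.33 ± 0.189, so under vehicle all MACC lines lay above the parental line. Under tamoxifen the neutral line (1.06 to 1.72) overlapped the parental libraries of both treatments. The repressive line, at 1.10 to 1.26, lay below all parental vehicle libraries (1.34 to 1.73) and overlapped parental tamoxifen libraries (1.12 to 1.57). The activating line, at 1.79 to 2.73, stayed above all parental libraries. This description was not tested.

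**Figure D3:**
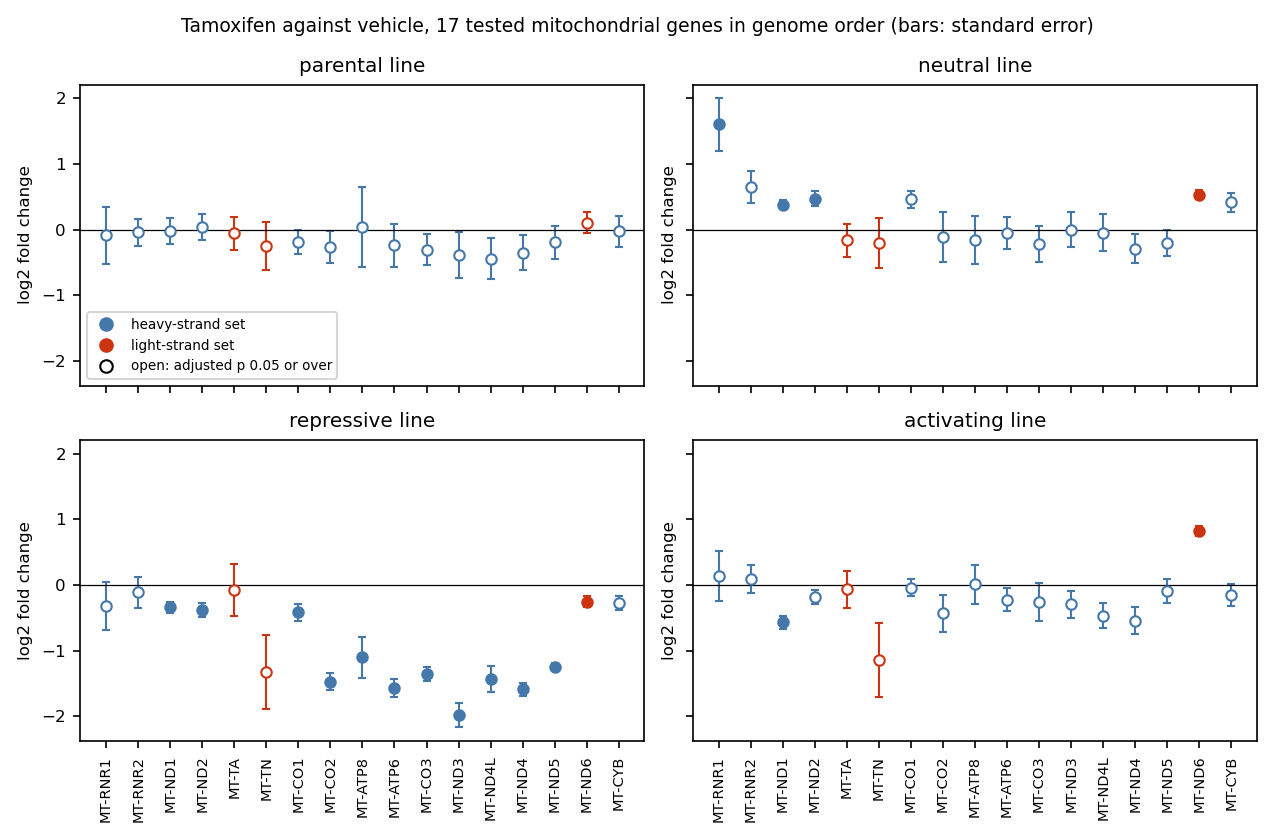
Log2 fold change of tamoxifen against vehicle for the 17 tested mitochondrial genes in genome order, a panel per line, with standard errors as bars, filled points for adjusted p under 0.05 and red for the light-strand set. In the repressive line the genes from MT-CO2 through MT-ND5 lie between -1.99 and -1.10, and in the activating line MT-ND6 lies at 0.82 above all other members.

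In the activating line MT-ND6 rose and MT-ND1 fell, and no other member passed. That is 2 of 17 members called in a line where 44.8% of all tested genes were called, 22.0% higher and 22.8% lower. MT-ND6 had normalized counts of 5517, 5802, 6559 and 6780 under vehicle and 8784, 9977, 9858 and 11315 under tamoxifen. Every tamoxifen library lay above every vehicle library, and the log2 fold change was 0.82 (SE 0.0752, adjusted p = 3.68e-09 from edgeR).

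MT-ND1, a complex I subunit read from the heavy strand, had 677, 610, 745 and 777 under vehicle and 404, 382, 422 and 526 under tamoxifen. The order was the opposite of that for MT-ND6, again without overlap, at -0.57 (SE 0.0988, adjusted p = 4.91e-05 from edgeR). The nearest of the other members were MT-ND4 at -0.54 and MT-ND4L at -0.47 (adjusted p = 0.0636 and 0.0569 from edgeR). MT-ND5 was at -0.09 (SE 0.182, adjusted p = 0.718 from edgeR), with 2072, 1848, 2990 and 2813 under vehicle and 2360, 1722, 2226 and 2022 under tamoxifen.

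The scaling of libraries mattered most in the activating line. Dividing by library totals in place of TMM shifted the median of all tested genes by -0.43 on the log2 scale. On that scale 12 members were called, of which 11 were lower and 1, MT-ND6, was higher, at 0.39. Of all 3985 tested genes, 453 were called higher and 1655 lower on it, so lower calls were common among all genes there. The directions of MT-ND6 and MT-ND1 held under every scaling tried.

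In the neutral line 4 members rose with tamoxifen and none fell, beside 4.74% of all tested genes called, 2.63% higher and 2.11% lower. MT-ND6 had normalized counts of 3990, 4758, 4395 and 5058 under vehicle and 6584, 6591, 6888 and 6490 under tamoxifen. The tamoxifen libraries lay close together above all vehicle libraries, at a log2 fold change of 0.53 (SE 0.0671, adjusted p = 3.84e-05 from edgeR). MT-ND1 ranged from 448 to 490 under vehicle and from 558 to 667 under tamoxifen, a change of 0.38 (SE 0.0735, adjusted p = 0.00376 from edgeR). MT-CO1 was at 0.46 (adjusted p = 0.0514 from edgeR).

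MT-ND2, another complex I subunit, changed by 0.47 (SE 0.115, adjusted p = 0.0311 from edgeR), from 350 to 462 under vehicle to 470 to 727 under tamoxifen. MT-RNR1 changed by 1.60 (SE 0.4, adjusted p = 0.022 from edgeR), but its counts were few, with normalized counts of 2.47 to 11.7 under vehicle and 12.6 to 31.9 under tamoxifen. Leaving out replicate 2 or 3 of either treatment ended the call for MT-ND2 (adjusted p from edgeR 0.0534 to 0.0988), and replicate 1 of either treatment, replicate 4 of vehicle or replicate 3 of tamoxifen did so for MT-RNR1 (0.0698 to 0.117). Without tamoxifen replicate 3, 2 members were called. Without tamoxifen replicate 4, 7 were, of which 4 were higher and 3 lower, so the absence of members that fell rests on that library. Calls over all 3985 genes went from 189 to 414 without replicate 4 and to 105 without replicate 3, so these shifts were not particular to members. Dividing by library totals shifted the median of all genes by -0.14 and left MT-ND1 and MT-ND2 at 0.26 and 0.36 without a call (adjusted p = 0.296 and 0.161 from edgeR).

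In the parental line, which has no construct, no member was called and neither was any of the 3985 genes (0%). At an unadjusted p under 0.05 there were 303 genes and 0 members, and DESeq2 also called 0 members. MT-ND6 had 9053, 5616, 5690 and 7461 under vehicle and 7234, 7705, 7779 and 8285 under tamoxifen, at 0.11 (SE 0.16). The vehicle libraries spread beyond the tamoxifen libraries on both sides. Log2 fold changes of the 17 members ran from -0.44 for MT-ND4L to 0.11 for MT-ND6. Parental vehicle libraries varied widely in the heavy-strand genes as well: MT-ND5 was at 1644, 931, 941 and 1856, with replicates 1 and 4 well above replicates 2 and 3.

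**Figure D4:**
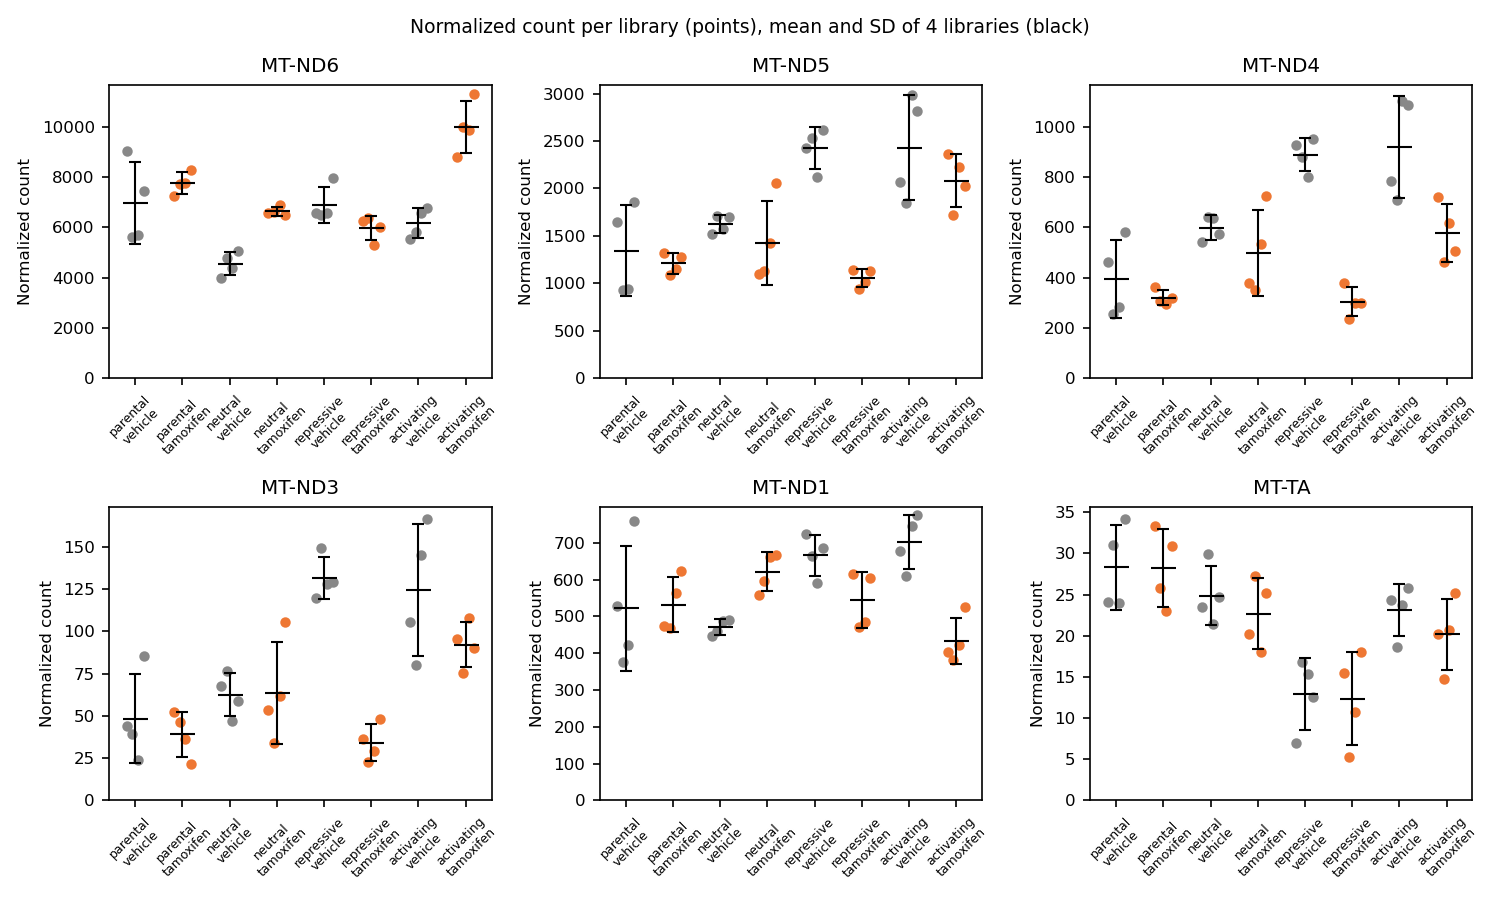
Normalized counts (CPM after TMM scaling) of 6 mitochondrial genes in each library, grey for vehicle and orange for tamoxifen, with black bars for the mean and SD of 4 libraries. MT-ND5, MT-ND4 and MT-ND3 are lower under tamoxifen in all repressive libraries, MT-ND6 is higher in all tamoxifen libraries of the neutral and activating lines, and MT-TA is lowest in the repressive line.

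Whether responses differed was tested by an interaction term over 16 libraries, and both comparisons below share the 8 neutral libraries. The repressive response was lower than the neutral response for 10 of 17 members, beside 3.39% of all tested genes that differed and 1.86% that were lower. The 6 with the smallest adjusted p were MT-ND1 at -0.72 (SE 0.112, adjusted p = 8e-05 from edgeR), MT-ND6 at -0.78 (SE 0.114, adjusted p = 0.000222), MT-ND3 at -1.99 (SE 0.344, adjusted p = 0.000941), MT-ATP6 at -1.51 (SE 0.304, adjusted p = 0.00813), MT-ND4 at -1.30 (SE 0.262, adjusted p = 0.0168) and MT-CO1 at -0.88 (SE 0.207, adjusted p = 0.0173). MT-ND2, MT-ND5, MT-ND4L and MT-RNR1 also differed, at -0.86, -1.04, -1.39 and -1.92. For MT-ND1, MT-ND6 and MT-ND3 this held in all 25 alternatives. MT-RNR1, which has few counts, lost the call when any of 11 of the 16 libraries was left out (all but neutral vehicle replicates 2 and 3, neutral tamoxifen replicates 2 and 4 and repressive vehicle replicate 2), with adjusted p-values from edgeR of 0.0534 to 0.108. MT-ND4L lost it without neutral tamoxifen replicate 3, repressive vehicle replicate 1 or 4, or repressive tamoxifen replicate 2 or 3 (adjusted p from edgeR 0.0501 to 0.0628). With library totals in place of TMM, 3 of the 10 calls were made.

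The activating response differed from the neutral response for 5 of 17 members, where 33.4% of all tested genes differed. MT-ND1 was at -0.98 (SE 0.114, adjusted p = 5.4e-08 from edgeR), with a rise in the neutral line and a fall in the activating line. MT-ND2 was at -0.68 (SE 0.165, adjusted p = 0.00326 from edgeR), MT-CO1 at -0.53 (SE 0.187, adjusted p = 0.028), MT-RNR1 at -1.50 (SE 0.57, adjusted p = 0.0422) and MT-ND6 at 0.26 (SE 0.0974, adjusted p = 0.0381). Those for MT-ND1 and MT-ND2 held in all 25 alternatives. The call for MT-CO1 was lost without neutral vehicle replicate 1 or 2, neutral tamoxifen replicate 4, activating vehicle replicate 1, 3 or 4, or activating tamoxifen replicate 1 or 2 (adjusted p from edgeR 0.0502 to 0.123). For MT-RNR1 it was lost without neutral vehicle replicate 1 or 4, neutral tamoxifen replicate 1 or 3, activating vehicle replicate 1, 3 or 4, or activating tamoxifen replicate 1 or 2 (0.0583 to 0.126). For MT-ND6 it was lost without neutral vehicle replicate 2 or 4, neutral tamoxifen replicate 2, 3 or 4, activating vehicle replicate 1 or 2, or activating tamoxifen replicate 2, 3 or 4 (0.0526 to 0.113). Without neutral tamoxifen replicate 1, the library that stood apart, 4 members differed. With library totals in place of TMM the difference for MT-ND6 had the opposite sign (-0.015, adjusted p = 0.949 from edgeR), so whether MT-ND6 rose more in the activating line depends on the scaling.

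Under vehicle, before induction, 7 of 17 members were called between the repressive and parental lines, beside 11.0% of all tested genes. Of these, 6 were higher, all from the 8 adjacent heavy-strand genes, and 1 was lower, beside 5.70% of all genes called higher and 5.27% called lower. MT-ND3 was at 44.2, 39.3, 23.9 and 85.6 in parental vehicle libraries, all below the repressive vehicle values given above, at a log2 difference of 1.41 (SE 0.242, adjusted p = 0.00144 from edgeR). MT-CO2 ranged from 47.9 to 141 in the parental line, again with no overlap, at 1.22 (SE 0.218, adjusted p = 0.0027 from edgeR). MT-ND4L, MT-CO3, MT-ND4 and MT-ATP6 were higher by 1.10, 1.12, 1.16 and 1.28 (adjusted p from edgeR 0.0213 to 0.0283).

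Those last 4 calls were each lost without certain libraries. Adjusted p-values from edgeR without a library ran up to 0.0622 for MT-ND4L (lost without parental replicate 2 or repressive replicate 4), 0.0609 for MT-CO3 (repressive replicate 1 or 2), 0.0705 for MT-ND4 (parental replicate 3 or any repressive replicate) and 0.0899 for MT-ATP6 (parental replicate 2 or repressive replicate 1, 2 or 3). The number of members called ran from 3 without repressive replicate 1 to 11 without parental replicate 4.

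MT-TA was the member called lower. Its normalized counts in vehicle libraries were 24.1, 31.1, 23.9 and 34.2 in the parental line and 6.96, 16.9, 15.3 and 12.5 in the repressive line, without overlap, at -1.14 (SE 0.311, adjusted p = 0.0197 from edgeR). The call was lost without parental replicate 4 or repressive replicate 1 (adjusted p = 0.0617 and 0.0713) and with DESeq2 (0.0707). Under tamoxifen MT-TA stayed low in the repressive line, at 12.4 ± 5.65 (SD, n = 4), and in the other lines and treatments its group means were between 20.2 and 28.3.

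The vehicle libraries of the repressive line entered both its comparison with the parental line and its tamoxifen comparison, so the higher values in the first and the lower values in the second are not independent. For MT-ND3 the means were 48.2 ± 26.3 in parental vehicle, 132 ± 12.5 in repressive vehicle and 34.0 ± 11.0 in repressive tamoxifen libraries. For MT-CO2 they were 88.6, 210 and 77.5. The repressive tamoxifen libraries thus sat near the parental level for both genes.

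The activating line under vehicle differed from the parental line in MT-ND4L, at 1.29 (SE 0.314, adjusted p = 0.0249 from edgeR), where 8.06% of all tested genes were called, 3.54% higher and 4.52% lower. This call was lost without parental replicate 2 or activating replicate 3 or 4 (adjusted p from edgeR 0.0524 to 0.0665). MT-ND3, MT-ND4, MT-ATP6, MT-CO2 and MT-CO3 were at 1.14 to 1.29 with adjusted p-values from edgeR of 0.0523 to 0.112, and DESeq2 called 6 members. The neutral line differed in none of the 17 members in edgeR, with 9.11% of all genes called, 3.94% higher and 5.17% lower. There, 2 members had an unadjusted p under 0.05 and DESeq2 called 1. MT-ND6 was at -0.66 (SE 0.194, adjusted p = 0.0834 from edgeR) in that comparison, and its 4 neutral libraries lay below all 4 parental libraries.

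Nuclear genes that build and regulate the respiratory chain were counted from 10 lists of 212 genes, of which 45 were tested. No listed subunit of complex II or complex IV passed the filter. For 33 of the 45, an opposite-strand exon overlaps, and there reads cannot be assigned without a strand setting. The setting is also unknown for the other 12, whose counts are likewise not shown to be the gene's own transcripts. In the repressive line 3 of the 45 rose and 0 fell, a smaller share than the 17.8% of all tested genes called there (7.80% higher, 9.99% lower), with a median log2 fold change of -0.06 over the 45 genes. They were ATF4, a transcription factor of the stress response, at 1.21 (SE 0.332, adjusted p = 0.00977 from edgeR), and the mitochondrial ribosomal protein genes MRPL51 and MRPL34 at 0.51 and 0.60 (adjusted p = 0.000895 and 0.0294 from edgeR). The exons of MRPL51 and MRPL34 overlap an opposite-strand exon. None of the 9 tested nuclear complex I genes and none of the 9 tested ATP synthase genes passed there. Their mitochondrial partners in the same complexes were called lower in that line, but the difference between these sets of genes was not tested.

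In the activating line 7 of the 45 nuclear genes rose and 11 fell, with a median of -0.23 beside -0.09 over all tested genes. This is near the background of 44.8% of all tested genes called in that line (22.0% higher, 22.8% lower), so nothing particular to these genes is read from it. Among the 9 tested nuclear genes of ATP synthase 1 rose and 2 fell, with a median of -0.39. ATP5D, a subunit of ATP synthase with no opposite-strand exon, rose by 3.34 (SE 0.261, adjusted p = 2.17e-10 from edgeR), and ATPIF1, the inhibitor of that enzyme, fell by 1.49 (SE 0.281, adjusted p = 0.000135). The complex I subunit NDUFS7 rose by 1.11 (SE 0.204, adjusted p = 9.57e-05 from edgeR). POLG, the polymerase that copies mitochondrial DNA, fell by 2.74 (SE 0.156, adjusted p = 7.57e-13 from edgeR), and TEFM, the elongation factor of mitochondrial transcription, fell by 2.43 (SE 0.368, adjusted p = 8.27e-06). The exons of ATPIF1, NDUFS7, POLG and TEFM overlap an opposite-strand exon. PHGDH and SHMT2, enzymes of serine and glycine metabolism, were at -3.36 and -1.87 (adjusted p = 0.000941 and 6.53e-05 from edgeR). In the neutral and parental lines none of the 45 nuclear genes passed.

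Near-identical nuclear copies of mitochondrial genes took few counts. Of 175 such genes, 39 had a count, with 29 to 122 counts per library, and their sum was 0.945% of that on the mitochondrial genes. The largest were MTND2P28, MTATP6P1 and MTND4P20, with means of 27.2, 15.7 and 15.5 counts. Their group means, not scaled for depth, were 101.5 counts in repressive vehicle and 51.0 in repressive tamoxifen libraries, lower as for the heavy-strand genes. From vehicle to tamoxifen they went from 110.5 to 68.0 in the activating and from 80.0 to 68.0 in the neutral line. In the parental line they went from 45.25 to 50.75. Reads could be split between a gene and its copy, and adding each copy's counts to its mitochondrial gene, a choice made after the values were seen, left the numbers of members called under tamoxifen at 12 in the repressive, 4 in the neutral, 2 in the activating and 0 in the parental line.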

How the data were processed

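Poly(A)-selected, strand-marking RNA libraries of 4 LNCaP lines under 2 treatments (4 replicates each) were sequenced by the study. The authors quantified reads with Salmon 1.9.0 on GRCh37 and deposited estimated counts per gene, not normalized, and their notes also name DESeq2 1.28.0. The annotation release and the strand setting were not given in the sources used here. Estimated counts were rounded to whole numbers (1.06% of values were not whole).

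Groups came from the labels. Genes passing filterByExpr over the 8 groups (3985) were scaled by TMM over the libraries of each fit and tested with edgeR 4.0.16 in R 4.3.3 (estimateDisp, robust glmQLFit, glmQLFTest, Benjamini-Hochberg at 0.05). Tamoxifen was compared with vehicle, and lines under vehicle, over 8 libraries, and responses over 16. The fitting code was tested on simulated counts first. There, a log2 change of 1 was called for 55.1% of changed genes in the parental line. In the neutral, repressive and activating lines it was called for 68.4, 63.2 and 62%, so a gene not called may still have changed. Normalized counts used TMM over all 32 libraries. Positions came from the GENCODE annotation lifted to GRCh37, and sequences from the GRCh37 reference. Alternatives were DESeq2 1.42.0, other scalings and filters, a fit of all 32 libraries, a replicate block, nuclear copies added, and each library left out.

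The members, the gene lists and the tests were chosen with earlier results of these data known. All members were described, with full statistics for at most 6 called per comparison by adjusted p. Listed nuclear genes were named by smallest adjusted p in the activating line (at most 2 per list), and the 3 called in the repressive line were named after their values were seen. Not every list with calls in the activating line had a gene named for it. Left unnamed were the lists of complex III (1 higher), mitochondrial RNA processing (1 higher) and the mitochondrial ribosome (2 higher, 2 lower). PECAM1, a marker for endothelial cells, was not found under that symbol. No 2 replicates agreed within sampling noise (chi-square per gene 1.46 to 32.1 over 48 pairs).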

Additional observations from a re-analysis of the deposited data

Results flagged for a closer look

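In groups of 4 libraries, 5 normalized counts of members lay far from the other 3 by Dixon's criterion, among 144 groups checked, where chance alone gives about 1 in 20. MT-ND6 was at 7971 in repressive vehicle replicate 4, with the others at 6487 to 6582. MT-CO1 was at 213 in parental tamoxifen replicate 4, with the others at 149 to 159. MT-ATP6 was at 57.4 in parental tamoxifen replicate 3, with the others at 77.4 to 79.8. MT-ND4L was at 37.0 in neutral vehicle replicate 1, with the others at 57.2 to 58.7. MT-ATP8 was at 43.4 in activating tamoxifen replicate 3, with the others at 20.2 to 23.4. These were 5 different libraries.

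Responses to tamoxifen differed between lines by an interaction test for 15 values. Against the neutral response, the activating response was at 0.26 for MT-ND6, -0.68 for MT-ND2, -0.53 for MT-CO1, -0.98 for MT-ND1 and -1.50 for MT-RNR1. Against the same neutral response, the repressive response was at -0.78 for MT-ND6, -0.86 for MT-ND2, -1.04 for MT-ND5, -0.88 for MT-CO1, -1.99 for MT-ND3, -1.30 for MT-ND4, -0.72 for MT-ND1, -1.51 for MT-ATP6, -1.92 for MT-RNR1 and -1.39 for MT-ND4L. Of these 15 values, only that for MT-ND6 in the activating line was above 0, and its sign and call depended on the scaling. Both sets share the neutral libraries, among them tamoxifen replicate 1.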

How the results depend on the processing

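Of 41 called member values, 17 kept their call in every alternative, 24 lost it in at least 1, and 1 reversed: the MT-ND6 difference between the activating and neutral responses, at -0.015 (adjusted p = 0.949 from edgeR) with library totals in place of TMM. Numbers of members called that moved by over 1.5 times are as follows. With tamoxifen in the neutral line, 4 became 2 with library totals, 7 with no filter on low counts, 2 in a fit of all 32 libraries and 7 with a replicate block. In the repressive line 12 became 7 in the fit of all 32 libraries. In the activating line 2 became 12 with library totals, 4 with no filter, 5 with at least 10 counts in every library and 4 with the block. Over all tested genes, calls in that line went from 1786 to 2108 with library totals. Between neutral and parental vehicle libraries 0 became 1 with DESeq2, 2 with no filter and 1 in the fit of all 32. Between activating and parental vehicle libraries 1 became 6 with DESeq2, 2 with DESeq2's size factors in edgeR, 3 with library totals, 2 with scaling over nuclear genes, 6 with no filter, 2 with at least 10 counts, 10 in the fit of all 32 and 5 with the block. For the activating against the neutral response, 5 became 2 with DESeq2 and 3 in the fit of all 32. For the repressive against the neutral response, 10 became 3 with library totals. Without MT-ND6 the difference in share of counts went from 0.134 to -0.0198 percentage points in the neutral, from -0.527 to -0.360 in the repressive and from -0.0563 to -0.253 in the activating line.

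Leaving out 1 library gave 9 to 13 members called under tamoxifen in the repressive line, 2 to 7 in the neutral, 2 to 5 in the activating and 0 to 0 in the parental line. Against parental vehicle libraries it gave 3 to 11 for the repressive, 0 to 7 for the activating and 0 to 2 for the neutral line, and 2 to 5 for the activating and 8 to 12 for the repressive against the neutral response. Share differences, in percentage points, ranged over -0.558 to -0.466 in the repressive, 0.0607 to 0.215 in the neutral, -0.110 to 0.00911 in the activating and -0.0456 to 0.120 in the parental line.

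Same-numbered libraries correlated at -0.379 to 0.304, in no comparison all above 0.1, so the block may share a number only. All were above 0 for tamoxifen in the repressive and activating lines and for the repressive against the parental line. A weak pairing there is not excluded. With the block, calls over all genes went from 709 to 931 for tamoxifen in the repressive line and from 437 to 691 for that line against the parental line. For the activating against the parental line they went from 321 to 90. The 20 members with too few counts to be tested were all tRNA genes. The cause of each change above was not tested.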
